A study of Mus musculus with 12 samples.

Results

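The genes described here are 7 peptide genes whose main neurons lie in hypothalamic nuclei around the arcuate nucleus (ARC) and not in it: Avp, Oxt, Crh, Trh, Hcrt, Pmch and Vip. They were chosen by name, as a measure of what an ARC dissection includes, and all 7 were found among the 16640 genes of the ARC table and among the 15801 genes tested. The table holds bulk RNA sequencing of microdissected ARC from female mice, 12 libraries in all, of animals 27 weeks old, on a mixed CD-1;129P2 background, all homozygous for a loxP-flanked Esr1 allele (Esr1 fl/fl), the gene for oestrogen receptor alpha. Control mice (Ctrl) carried no Cre. Mutant mice (NkxCre) also carried Nkx2-1-Cre, which acts in cells of the Nkx2-1 lineage of the ventral forebrain and so reaches well beyond the ARC. Animals ate chow throughout or had 17 weeks of high-fat feeding (HFD). There were 3 libraries of control chow, 4 of mutant chow, 2 of control HFD and 3 of mutant HFD. The ARC was microdissected with the optic chiasm as landmark, from a block of hypothalamus cut on a matrix slicer.

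Avp encodes vasopressin, the hormone of water retention, and Oxt encodes oxytocin, the hormone of milk ejection and labour. Both are made by large neurosecretory neurons of the paraventricular and supraoptic nuclei, whose axons cross the mediobasal hypothalamus on their way to the posterior pituitary; Avp is also made in the suprachiasmatic nucleus. Crh and Trh encode the releasing hormones that start the adrenal and thyroid axes from the paraventricular nucleus. Hcrt (hypocretin, or orexin, a wake-promoting peptide) and Pmch (melanin-concentrating hormone, which acts in feeding and sleep) mark separate neurons of the lateral hypothalamus, and Vip marks clock neurons of the suprachiasmatic nucleus that receive light signals.

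Avp and Oxt are related neighbours with a near-identical exon 2, and their sequences are shown first because the deposited values of each depend on how reads of the shared stretch were assigned. On GRCm38, Avp (ENSMUSG00000037727) lies at chr2:130580620-130582554 on the minus strand and Oxt (ENSMUSG00000027301) at chr2:130576173-130577054 on the plus strand, with their 3' ends facing each other across 3565 bases. The stretch of exon 1 that encodes the 9 residues of each hormone and the amidation and cleavage signal after them is 36 bases long (chr2:130582437-130582472 for Avp, chr2:130576267-130576302 for Oxt). It differs at 5 bases, given in capitals:
Avp: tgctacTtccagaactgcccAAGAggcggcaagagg
Oxt: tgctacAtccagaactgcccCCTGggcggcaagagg

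Exon 2 is coding throughout in both genes and encodes part of neurophysin, the carrier protein of each hormone. Its 202 bases (chr2:130581056-130581257 for Avp, chr2:130576591-130576792 for Oxt) were identical at 193 positions (95.54%), and the first 125 bases did not differ at all. The 9 differences are in capitals:
Avp: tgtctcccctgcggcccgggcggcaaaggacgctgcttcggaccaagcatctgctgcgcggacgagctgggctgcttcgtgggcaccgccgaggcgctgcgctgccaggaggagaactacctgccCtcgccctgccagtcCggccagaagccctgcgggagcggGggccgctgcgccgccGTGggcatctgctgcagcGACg
Oxt: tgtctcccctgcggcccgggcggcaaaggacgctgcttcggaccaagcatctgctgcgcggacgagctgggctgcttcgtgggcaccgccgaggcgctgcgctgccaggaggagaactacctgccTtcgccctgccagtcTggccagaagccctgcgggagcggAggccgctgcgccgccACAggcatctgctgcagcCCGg

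Of the 547 distinct 31-base words in the annotated Avp transcript, the word length kallisto uses by default, 97 (17.73%) also occurred in Oxt and none in another gene. Of the 507 words of Oxt, 111 (21.89%) occurred in other genes, 97 of them (19.13%) in Avp and 14 only in others. The remaining words of each gene tell them apart, but a part of the reads cannot, and the values of each gene are uncertain to that extent. Pmch (ENSMUSG00000035383, chr10:88091072-88092375, plus strand) overlaps the last exon of Parpbp on the opposite strand, and 377 of its 719 words (52.43%) were shared with that gene. The use of strand was not given, so reads of the overlap cannot be told apart, but Parpbp itself was listed at 0.00 to 1.78 in every library. Crh, Trh and Hcrt shared 0 words with any other gene, and Vip shared 14 of 3380 (0.414%). Crh (ENSMUSG00000049796) lies at chr3:19693401-19695396, Trh (ENSMUSG00000005892) at chr6:92242061-92244650, Hcrt (ENSMUSG00000045471) at chr11:100761069-100762931 and Vip (ENSMUSG00000019772) at chr10:5639218-5647617.

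The values are the authors' abundance signal, normalised for gene length and depth and near the scale of TPM, so levels can be compared between genes. The depth of a library is not known from the file, and a gene listed at 0 may be one that was not detected. Pairs of libraries correlated at Spearman's rho of 0.892 to 0.970 across genes, and 201 to 1768 genes were listed at 0 per library, most of them in mutant chow replicate 3. Esr1 was 7.29 to 19.8 in control chow, 1.65 to 6.05 in mutant chow and 15.3 and 22.4 in control HFD. The 3 libraries labelled mutant HFD read 10.7, 16.6 and 11.9, which overlaps both control groups and lies above every mutant chow library, so Esr1 goes against that label. Control HFD replicate 1 also stands apart: Tcf7l2, a marker of the thalamus, was 74.7 there and 12.3 to 25.0 elsewhere, and Agrp, the gene of the hunger neurons of the ARC, was lowest there (65.9, against 115 to 787). The labels do not say that the libraries came from separate animals, so p-values measure only the spread between these libraries. In bulk tissue, fewer cells of a type and less RNA per cell cannot be told apart.

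Avp and Oxt were among the most abundant transcripts of some ARC libraries and moderate in others. Avp read 91.1, 340 and 171 in control chow and 77.3, 3051, 377 and 678 in mutant chow. It read 195 and 236 in control HFD and 677, 2553 and 1926 in the libraries labelled mutant HFD. The highest library exceeded the lowest 39.5-fold, and both of those libraries were mutant chow. Ranked among the 16640 genes, Avp moved from place 26 in mutant chow replicate 2 to place 2262 in mutant chow replicate 1.

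Oxt read 59.3, 819 and 347 in control chow and 117, 1736, 378 and 934 in mutant chow. It read 153 and 339 in control HFD and 715, 1088 and 974 in the libraries labelled mutant HFD. The range was 29.3-fold, with the low end in control chow replicate 1 and the high end in the same mutant chow library that led for Avp. Its rank ran from 48 to 2829.

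The parvocellular releasing hormones were far lower. Trh was present in every library, at 23.3, 28.3 and 16.9 in control chow, 38.9, 33.0, 26.0 and 3.97 in mutant chow, 11.3 and 16.5 in control HFD, and 24.4, 49.0 and 26.9 in the libraries labelled mutant HFD. Apart from mutant chow replicate 4, all libraries lay between 11.3 and 49.0. The part of ARC neurons in the Trh values was not tested. Crh, the other releasing hormone of the paraventricular nucleus, was near 0. It was listed at 0 in 3 of 12 libraries, was under 1 in 7, and reached at most 3.75, in control HFD replicate 1.

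The lateral hypothalamic peptides were intermittent. Pmch read 61.9, 8.08 and 1.56 in control chow, 38.0, 21.03, 19.1 and 1.03 in mutant chow, 23.0 and 2.34 in control HFD, and 68.5, 21.9 and 63.6 in the libraries labelled mutant HFD. High and low libraries occurred within both control groups and within mutant chow, and the range was 66.4-fold. Hcrt read 5.14, 0.00 and 4.68 in control chow, 0.00, 75.9, 0.00 and 12.8 in mutant chow, 5.51 and 0.00 in control HFD, and 2.99, 7.64 and 6.54 in the libraries labelled mutant HFD. Hcrt was listed at 0 in 4 libraries, and in mutant chow replicate 2, which also led for Avp and Oxt, it was 5.92 times the next highest library.

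Vip was the lowest member. It read 0.07, 0.07 and 0.80 in control chow, 1.31, 0.32, 5.85 and 0.00 in mutant chow, 0.14 and 0.03 in control HFD, and 0.73, 0.32 and 1.49 in the libraries labelled mutant HFD. Vip was under 1 in 9 of 12 libraries, and its high value came from mutant chow replicate 3, the library with the most genes at 0.

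**Figure D1:**
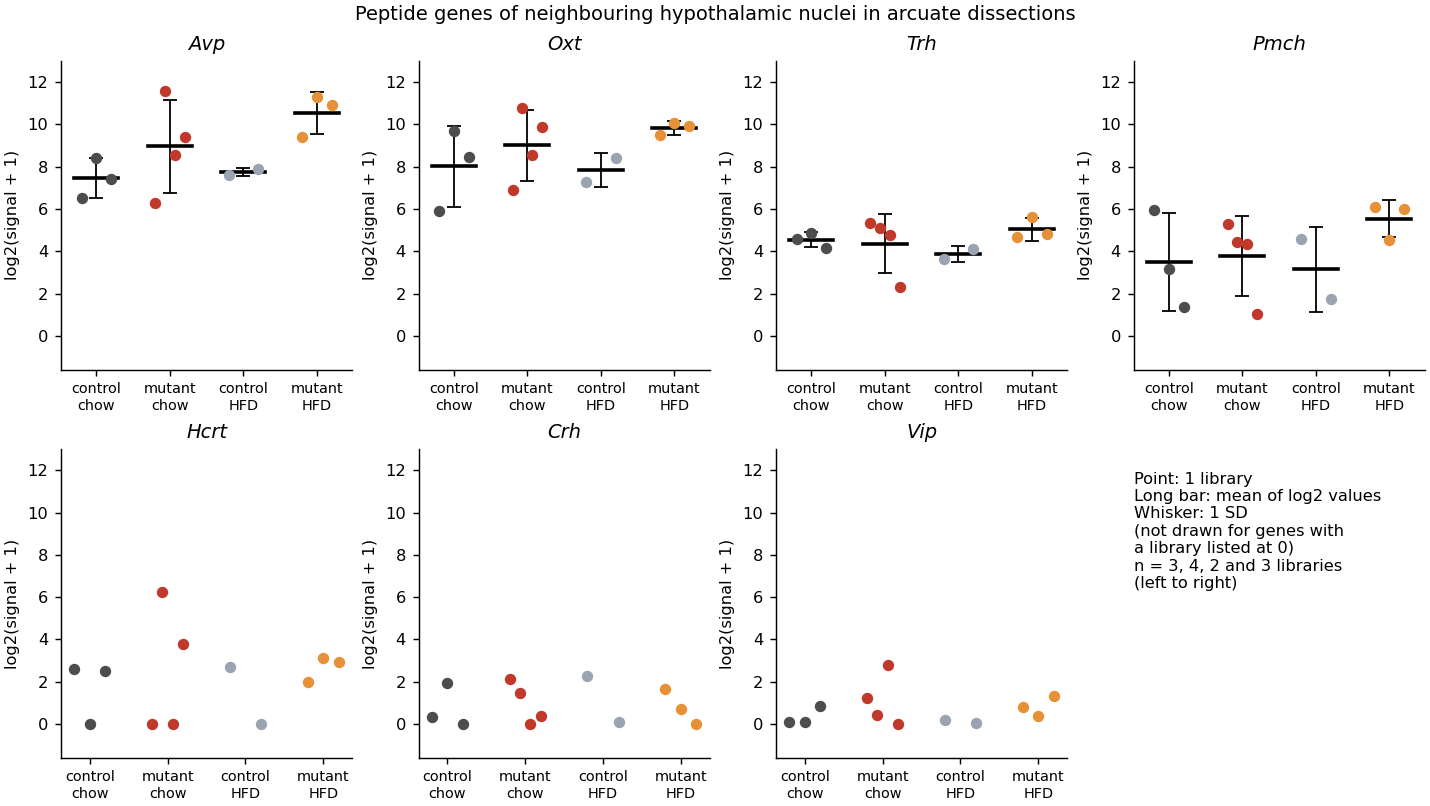
Signal of the 7 genes as log2(signal + 1) in each library, by group, with the mean and 1 SD of the log2 values where no library is listed at 0. Avp and Oxt sit far above the rest, Crh and Vip lie near 0, and the points of mutant chow span nearly the whole range for Avp, Oxt, Pmch and Hcrt.

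By the median over libraries, the order of levels was Oxt (546), Avp (358), Trh (25.2), Pmch (21.5), Hcrt (4.91), Crh (0.460) and Vip (0.319). Only the step from Avp to Trh held in 12 of 12 libraries. Oxt exceeded Avp in 7 of 12, Trh exceeded Pmch in 8, Pmch exceeded Hcrt in 9, Hcrt exceeded Crh in 8 and Crh exceeded Vip in 9, so the other neighbours in this order were not separated from each other beyond their spread. The ratio of Avp to Oxt ran from 0.415 in control chow replicate 2 to 2.35 in mutant HFD replicate 2. Avp and Oxt together made up 62.4% to 98.9% of the summed signal of the 7 genes.

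The same libraries gave the ARC's own neuronal genes as a reference: Agrp, Npy, Pomc, Cartpt, Ghrh, Th, Slc6a3, Tac2 and Tbx3. Their summed signal was 2119 to 8210 over the 12 libraries. The 7 neighbouring peptides amounted to 5.48% of that sum in control chow replicate 1 and 6.65% in mutant chow replicate 1. They reached 98.9% in mutant chow replicate 2, 95.5% and 81.0% in mutant HFD replicates 2 and 3, and 9.19% to 34.1% in the remaining libraries. Pomc, which encodes the precursor of the satiety peptide alpha-MSH, was 1009 to 4249, and so was exceeded by Avp in 3 of 12 libraries.

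The first comparison asked whether loss of Esr1 in the Nkx2-1 lineage went with other levels of these peptides on chow. With limma across all genes, none of the 7 passed an adjusted p of 0.05, against 0.019% of all genes tested, and none passed an unadjusted p of 0.05, against 4.34%. Mean Avp was 201 ± 127 (SD, n = 3) in control chow and 1046 ± 1359 (n = 4) in mutant chow, a ratio of 5.21. The fitted difference was 1.50 ± 0.93 on the log2 scale (SE, 95% interval -0.52 to 3.53, adjusted p = 0.982). Mean Oxt was 409 ± 384 and 791 ± 716, with a fitted difference of 1.01 ± 0.90 (-0.94 to 2.95, adjusted p = 0.982). Without mutant chow replicate 1, the lowest for Avp, its difference was 2.39 (unadjusted p = 0.00682 in limma). Without mutant chow replicate 2 the Avp difference was 0.63 and that of Oxt 0.43, and without control chow replicate 1 that of Oxt was -0.04.

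Trh was 22.8 ± 5.71 in control chow and 25.5 ± 15.3 in mutant chow, a fitted difference of -0.18 ± 0.59. Pmch was 23.8 ± 33.1 and 19.8 ± 15.1. The fitted differences of the low genes were 0.81 ± 1.34 for Hcrt, 0.25 ± 0.70 for Crh and 0.75 ± 0.57 for Vip, on the log2(value + 1) scale, which understates changes at low values. In 0 of 7 genes did the chow groups fail to overlap, where 2.54% of all genes were higher and 1.97% lower in mutant chow without overlap. The median of the 7 fitted differences was 0.75, beside 0.01 over all genes tested. The 95% intervals of Avp, Oxt, Pmch and Hcrt were wide (for Hcrt -2.11 to 3.72), so even large differences could go undetected with these libraries.

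On HFD the same question rests on 2 control libraries and on the 3 libraries whose label Esr1 goes against. None of the 7 genes passed an adjusted p of 0.05, against 0.00633% of all genes. Avp was 216 ± 29.3 (n = 2) in control HFD and 1719 ± 955 (n = 3) in the libraries labelled mutant HFD, a ratio of 7.97. Its fitted difference was 2.79 ± 1.11 (95% interval 0.37 to 5.21), with an unadjusted p of 0.027 in limma and an adjusted p of 1. It was the only one of the 7 with an unadjusted p below 0.05, where 2.21% of all genes were. With only the HFD groups in the fit, 4 of the 7 had an unadjusted p below 0.05 (Avp 0.00125, Oxt 0.000934, Trh 0.0148 and Pmch 0.0277 in limma), where 3.28% of all genes did, and none an adjusted one. For Avp in the fit of all groups, the unadjusted p was 0.0523 with array weights and 0.0986 without control HFD replicate 1, where the difference was 2.66. Control HFD replicate 2, mutant HFD replicate 2 and mutant HFD replicate 3 were also left out, each alone. In each of these fits none of the 7 genes, Avp included, had an unadjusted p below 0.05 in limma.

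Oxt was 246 ± 132 and 926 ± 191, a ratio of 3.77 and a fitted difference of 2.0 ± 1.07 (-0.33 to 4.32), or 1.42 without control HFD replicate 1. Trh was 13.9 ± 3.69 and 33.4 ± 13.5, a fitted difference of 1.16 ± 0.70 (-0.36 to 2.68). Vip was 0.14 and 0.03 in control HFD and 0.32 to 1.49 in the other group. For these 4 genes every library labelled mutant HFD lay above both control HFD libraries, while 7.27% of all genes did so; none of the 7 lay below without overlap, against 8.46%. Pmch, with a fitted difference of 2.39 ± 1.37, overlapped by 1 library, and the estimate was 3.81 without control HFD replicate 1 and 0.97 without control HFD replicate 2. Hcrt and Crh also overlapped. The median over the 7 was 1.32, beside -0.01 over all genes.

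**Figure D2:**
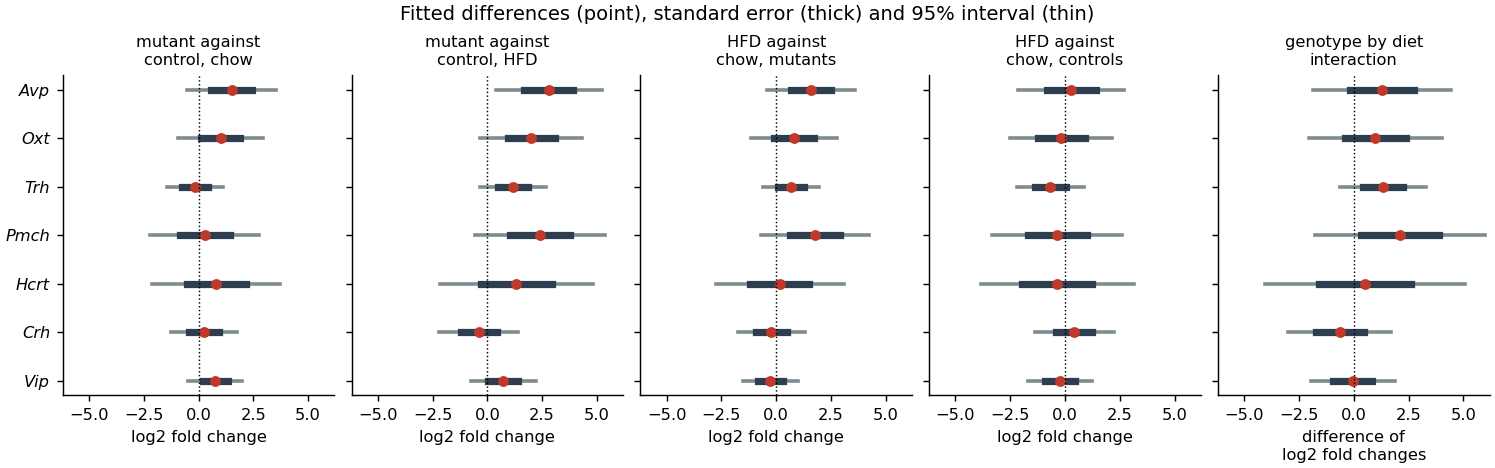
Fitted log2 differences of the 7 genes in the 5 comparisons, with the standard error (thick line) and the 95% interval (thin line). The interval of Avp between the HFD groups (0.37 to 5.21) is the only one that leaves out 0.

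Diet was compared within each genotype. In mutants, 0 of 7 genes passed an adjusted p of 0.05 (0.019% of all genes did) and 0 of 7 an unadjusted p of 0.05 (5.37%). Avp was 1.64 times as high in the libraries labelled mutant HFD as in mutant chow, a fitted difference of 1.59 ± 0.93 (-0.44 to 3.61), and Oxt 1.17 times, 0.81 ± 0.90 (-1.13 to 2.76). Without mutant chow replicate 2, the library with the most Avp, the Avp difference was 2.46, with an unadjusted p of 0.00635 and an adjusted p of 0.617 in limma, and without mutant chow replicate 1 it was 0.70. This comparison shares its HFD libraries with the genotype comparison above. Pmch, at 19.8 ± 15.1 and 51.3 ± 25.6, differed by 1.78 ± 1.14 (-0.71 to 4.26). The groups overlapped for all 7 genes, where 3.11% of genes were higher and 4.88% lower on HFD without overlap.

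In controls, 0 of 7 genes passed either threshold (0% of all genes adjusted, 3.54% unadjusted). The fitted differences in controls use no library labelled mutant HFD, but their SEs and p-values rest on a spread shared by all 12 libraries. Avp was 201 ± 127 on chow and 216 ± 29.3 on HFD, a fitted difference of 0.30 ± 1.11, and Oxt differed by -0.18 ± 1.07. Trh was lower in both HFD controls (11.3 and 16.5) than in the 3 chow controls (16.9 to 28.3), with a margin of 0.397 between the nearest libraries, where 7.76% of genes were lower without overlap. The other 6 overlapped, and none was higher without overlap (6.32% of genes). The interaction, the genotype difference on HFD minus that on chow, was 1.29 ± 1.45 for Avp and 0.99 ± 1.40 for Oxt, and 0 of 7 genes passed the adjusted threshold (0% of all genes) or the unadjusted one (3.44%).

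These genes varied widely between libraries of 1 group. The SD of log2(value + 1) within groups was 2.15 for Hcrt, 1.84 for Pmch, 1.51 for Avp, 1.45 for Oxt, 1.05 for Crh, 0.918 for Trh and 0.816 for Vip, against a median of 0.401 over genes tested. Of all genes tested, 0.297% varied more than Hcrt, 0.570% more than Pmch, 1.10% more than Avp, 1.30% more than Oxt, 4.65% more than Crh, 7.23% more than Trh and 10.5% more than Vip. Differences between the 4 groups accounted for 48.1% of the variance of Avp, 29.8% of Oxt, 26.0% of Pmch, 24.6% of Vip, 20.3% of Trh, 7.97% of Hcrt and 3.26% of Crh. With 4 groups and 12 libraries, unrelated groups would on average account for 27.3%; Oxt, Pmch and Vip lay near that share and Avp above it. These are descriptions of single genes, and genes with low values have noisier log2 values. Wide variation was not particular to the 7: among the marker genes, Cga of the pituitary ran from 82.0 to 4802 and Fezf1 of the ventromedial nucleus from 0.43 to 30.8.

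Whether the peptides varied together within groups was tested over the 21 pairs, on log2 values centred on group means, by exact permutation within groups (1728 arrangements, two-sided). Avp and Oxt correlated at Pearson's r = 0.868 (exact permutation p = 0.000579, the smallest these groups can give; adjusted over the 21 pairs p = 0.0122) and at Spearman's rho = 0.874 (exact permutation p = 0.00116, adjusted p = 0.0243). In each group the library with the most Avp also had the most Oxt. Leaving out each library in turn kept r between 0.784 and 0.934. Without mutant chow replicate 1 the adjusted p for r was 0.0972. For rho the adjusted exact permutation p was 0.146 without mutant chow replicate 1 or 2, and 0.0729 without mutant HFD replicate 1 or 2. Without the 2 libraries farthest from the median of Avp r was 0.865; its exact permutation p of 0.00694 is the smallest that those 10 libraries allow, and no pair could then pass after adjustment (0.146). The 2 genes share 31-base words as given above, and the part of shared reads in this correlation was not tested; the ratio of Avp to Oxt nonetheless ranged from 0.415 to 2.35.

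None of the other 20 pairs passed, and their unadjusted exact permutation p-values for r were at least 0.136. Hcrt and Pmch, both of the lateral hypothalamus, had r = -0.06 (rho = 0.02), and Crh and Trh r = 0.29 (rho = 0.24). Avp and Hcrt had r = 0.63 (rho = 0.37), where mutant chow replicate 2 is the highest library for both. Oxt and Pmch had r = -0.62 (rho = -0.66, exact permutation p for r = 0.136, adjusted p = 0.919). In all, 8 of 21 values of r were positive.

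**Figure D3:**
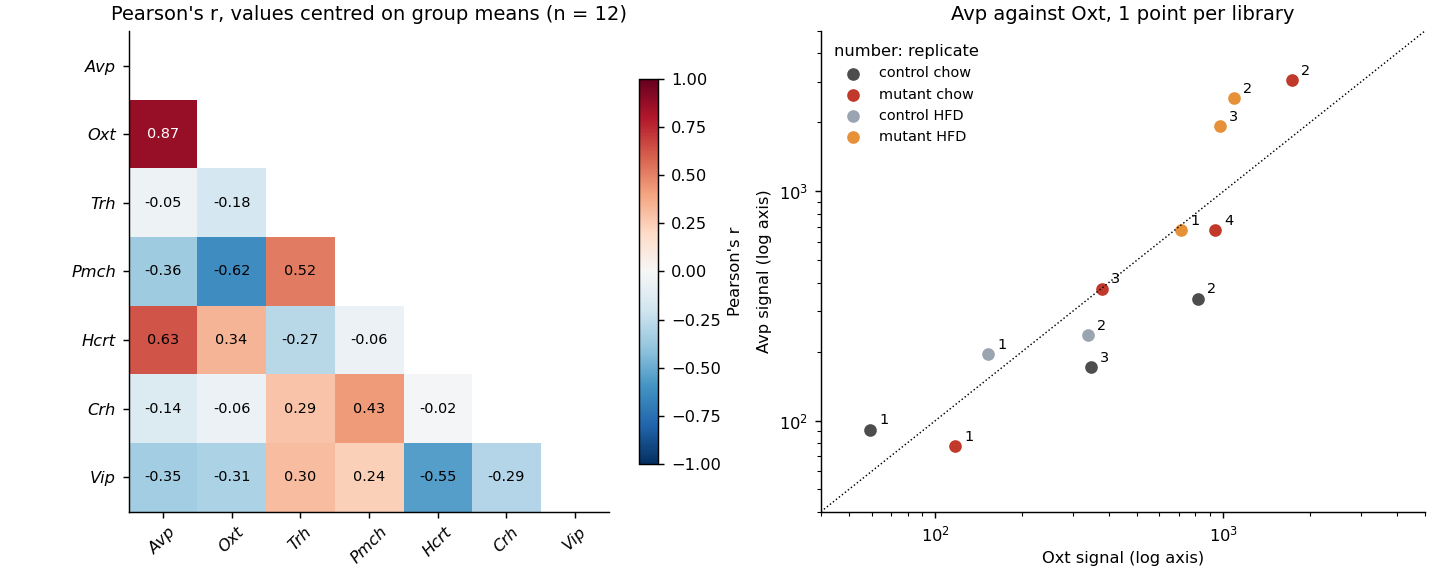
Left, Pearson's r between the 7 genes over 12 libraries after centring on group means. Right, Avp against Oxt signal on log axes, 1 numbered point per library, with the line of equality; within each group the library highest in Oxt is highest in Avp, and only the cell for this pair (0.87) passed the test.

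The start regions of Avp and Oxt are shown because the pair moved together. A promoter entry from RefSeq (GRCm38.p6) matched 6 of the 7 genes, all but Crh. The 250 bases before the RefSeq start of Avp (chr2:130582589-130582838, minus strand) and of Oxt (chr2:130575919-130576168, plus strand) were searched on both strands for CACGTG, the E-box bound by clock factors, and AGGTCA, the half-site of nuclear receptors. The 2 motifs share no overlap. Matches are in capitals:
Avp: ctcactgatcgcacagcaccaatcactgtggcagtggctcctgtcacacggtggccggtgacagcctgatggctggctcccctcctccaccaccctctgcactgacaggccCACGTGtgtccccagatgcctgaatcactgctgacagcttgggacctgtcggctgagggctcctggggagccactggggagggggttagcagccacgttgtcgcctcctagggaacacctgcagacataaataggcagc
Oxt: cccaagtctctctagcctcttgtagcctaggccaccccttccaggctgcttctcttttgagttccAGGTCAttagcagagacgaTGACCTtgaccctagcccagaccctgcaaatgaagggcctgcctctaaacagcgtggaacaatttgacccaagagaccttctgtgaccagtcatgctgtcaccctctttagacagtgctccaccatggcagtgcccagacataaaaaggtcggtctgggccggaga

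Avp held CACGTG once, at -139, a motif found in 6.021% of 32851 promoters of this length. Oxt held AGGTCA at -185 and, on the other strand, at -166, and Trh held it at -57; 14.02% of promoters had at least 1. Hcrt, Pmch and Vip held neither within this window. Neither motif occurred in both the Avp and the Oxt window.

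The genes most like each member over the 12 libraries, by Pearson's r of centred log2 values among 14968 genes with a mean of at least 1, included Rrn3 (0.918) and Vars (0.898) for Avp, and were Gsn (0.967), Vars (0.944) and Rgs5 (0.943) for Oxt. Oxt itself ranked place 5 for Avp, and Avp place 11 for Oxt. For Pmch the nearest were Gpr149 (0.939), Gm17455 (0.938) and Cdiptos (0.937), for Hcrt Fjx1 (0.992), Akap12 (0.939) and Gpr37l1 (0.910), and for Trh Bambi-ps1 (0.936), Tas1r1 (0.910) and Coq9 (0.898). For Crh they were Srarp (0.945), Thy1 (0.941) and Fam57b (0.934), and for Vip Zfp612 (0.978), Rnf111 (0.976) and Tut4 (0.971). With 12 libraries and this many genes, values of this size are the top of a long list, and Hcrt, Crh and Vip were at or near 0 in many of the libraries.

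The neurons of the source nuclei were looked for by genes other than the peptides. Of 5 genes for paraventricular and supraoptic neurons, Sim1, which marks that lineage, was listed between 0.00 and 1.18 in every library and at 0 in 5, including control chow replicate 2, where Oxt was 819. Its 3 highest libraries were mutant HFD replicate 2 (1.18), mutant chow replicate 2 (0.556) and mutant HFD replicate 3 (0.480), which were also the 3 highest for Avp. Sim1 was too low for the filter, so 4 of the 5 were tested. Otp, which is also expressed in ARC neurons, was 87.8 to 185 and had r = 0.62 with Oxt and 0.27 with Avp within groups. Pou3f2, Arnt2 and Caprin2 had r = 0.04, -0.03 and 0.008 with Avp and -0.28, -0.38 and 0.10 with Oxt. These values of r are descriptions over 12 libraries. The summed level of the 5 was 169 to 243 in control chow, 158 to 211 in mutant chow, 203 and 249 in control HFD, and 201 to 223 in the libraries labelled mutant HFD. These ranges overlap between the genotypes on each diet, but most of the sum is Otp and Arnt2, which are not particular to those nuclei, and the part of dissected paraventricular or supraoptic tissue in the Avp and Oxt values was not tested.

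Of the ventromedial genes, Fezf1 (transcription factor) was 0.43 to 10.3 in control chow and 7.25 to 30.8 in mutant chow, and Nr5a1, the defining factor of that nucleus, was 1.35 to 9.11 and 6.90 to 26.8. The summed ventromedial level of 3 genes was 23.2 to 64.2, 50.1 to 145, 35.4 and 124, and 78.6 to 115 in the 4 groups, in the order given at the start. Control chow replicate 3 and control HFD replicate 2, the lowest libraries for Fezf1 (0.43 and 0.44), were also among the 3 lowest for Pmch (1.56 and 2.34). The lateral hypothalamic genes Lhx9, Nptx2 and Parpbp summed to 15.3 to 32.7 in control chow and 31.9 to 72.6 in mutant chow, nearly all of it Nptx2. Nptx2 was highest in mutant chow replicate 2 (71.8), the library with the most Hcrt, where Lhx9 was 0.80 and Parpbp was listed at 0; Lhx9 was highest in control HFD replicate 1 (5.96). Parpbp, which overlaps Pmch, is not independent of it. The part of these edges of the dissection in the Pmch and Hcrt values was not tested.

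Of the suprachiasmatic genes, Nms, a peptide of clock neurons, was 3.15 to 3.93 in control chow and 3.79 to 25.8 in mutant chow, with its maximum in mutant chow replicate 4, where Vip was listed at 0. Prok2, another output peptide of the clock, was 4.12 to 8.995 in control chow and 1.09 to 2.75 in mutant chow, a fitted difference of -1.62 ± 0.44 (unadjusted p = 0.00303, adjusted p = 0.905 in limma). Prok2 was named for the size of this same difference, so its unadjusted p-value is not that of a gene chosen beforehand. Vipr2, the receptor for Vip on clock neurons, was highest (10.9) in mutant chow replicate 3, as was Vip. None of the 5 suprachiasmatic markers passed the adjusted threshold in any comparison.

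The remaining lists gave no called gene either. The dorsomedial genes Ppp1r17 and Npvf, the 4 posterior hypothalamic and mammillary genes, the 2 thalamic genes, the 9 ARC genes, the 3 tanycyte genes, the 4 of 5 pituitary genes found and the 3 oligodendrocyte genes had median fitted differences between -0.23 and 0.66 for genotype on chow. On HFD the pituitary list had 4 of 4 positive differences, where 7648 of 15801 genes tested were positive, and a median of 1.38. Its summed level was 112 in control HFD replicate 1, 1422 in replicate 2 and 862 to 1745 in the libraries labelled mutant HFD, and its part in the HFD values of Avp and Oxt was not tested. Oligodendrocyte genes, which mark white matter, summed to 921 to 2969 in control chow, 1395 to 4482 in mutant chow, 1320 and 2808 in control HFD and 1413 to 2157 in the libraries labelled mutant HFD. Of the ARC genes, Slc6a3, the dopamine transporter, was 6.82 to 16.6 in control chow and 1.21 to 4.34 in mutant chow, a fitted difference of -1.71 ± 0.43 (unadjusted p = 0.00191, adjusted p = 0.865 in limma), and Tac2, which encodes neurokinin B, was 260 to 700 and 653 to 1026. Agrp and Npy, the hunger peptides, differed by -0.26 ± 0.60 and 0.14 ± 0.59.

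**Figure D4:**
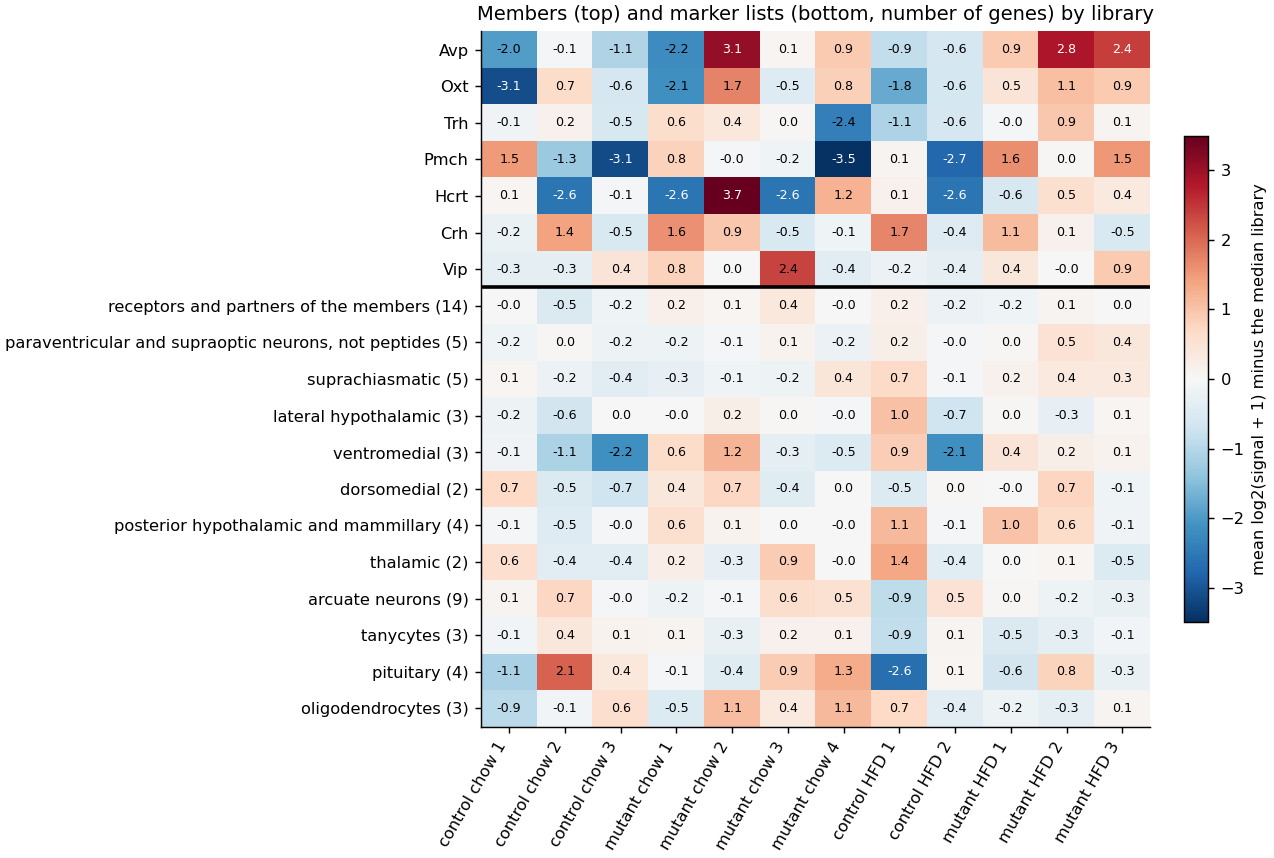
Log2(signal + 1) of the 7 genes (top) and mean log2(signal + 1) of each marker list (bottom, with the number of genes in the file) in each library, as the difference from the median library. Avp and Oxt are high in mutant chow 2 and mutant HFD 2 and 3 and low in control chow 1 and mutant chow 1. The list for paraventricular and supraoptic neurons moves less. It is highest in mutant HFD 2 and 3 and next in control HFD 1, and lies slightly below the median library in mutant chow 2.

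Receptors and binding partners of the 7 peptides were present at low to moderate levels. Of 20 such genes, 14 were in the table, all 14 were tested, and 0 passed the adjusted threshold in any comparison. On chow 13 of 14 had a positive fitted difference, as did 52.2% of all genes, with a median of 0.29 beside 0.01 over all genes, and 2 had an unadjusted p below 0.05, as did 4.34% of all genes. These were Oxtr, the oxytocin receptor, and Trhr, the receptor for Trh. Oxtr was 5.93, 4.54 and 2.59 in control chow and 10.8, 8.66, 18.4 and 8.09 in mutant chow, a fitted difference of 1.20 ± 0.35 (unadjusted p = 0.00447, adjusted p = 0.956 in limma). Trhr was 3.89 to 5.74 and 9.14 to 15.7, a difference of 1.06 ± 0.27 (unadjusted p = 0.00195, adjusted p = 0.865 in limma). Trhr was named after its values were seen, and Oxtr for the size of this same difference on chow. Neither unadjusted p-value is therefore that of a gene chosen beforehand. Both receptors were higher in mutant chow without overlap, as were 2.54% of all genes. Crhbp, which binds Crh, was 1.51 to 7.21 and 4.41 to 16.03, a difference of 1.08 ± 0.62. On HFD 7 of 14 differences were positive, with a median of 0.02.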

How the data were processed

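Total RNA of microdissected ARC was sequenced (NEBNext Ultra II libraries, Illumina NovaSeq). According to the submitters' processing notes, the authors used kallisto with the mm10 build, and sleuth for their own tests; versions, annotation, gene filter and strand use are not given in the sources used here. The deposited values are an abundance signal per gene, normalised by the authors for length and depth, near the scale of TPM. Column totals ran from 922172 to 1254999 and values were not whole reads, so depth is unknown, no counting interval or floor is given, and precision is judged from the spread between libraries. Every value column matched a label. No 2 libraries held identical values (0 of 66 pairs).

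Symbols came from GENCODE M21 (16633 of 16640 genes matched). Genes with a signal of at least 1 in at least 2 libraries were kept (15801). Log2(value + 1) was fitted with limma 3.58.1 (mean-variance trend, R 4.3.3), 1 mean per group over all 12 libraries, 5 two-sided contrasts, Benjamini-Hochberg over all genes at 0.05. On simulated data for genotype on chow (15801 genes), 15 of 50 genes changed 2-fold, 41 of 50 changed 4-fold and 49 of 50 changed 16-fold were called, with 12 of 15601 unchanged genes. Correlations used exact permutation within groups (scipy 1.17.1, numpy 2.4.6, python 3.11.15). Genes named were the 7 peptides, Esr1, the 3 genes most like each peptide, the ARC list and, from each other marker list, genes called and the 2 with the largest difference for genotype on chow, with a few more for context; 1 gene that this rule names is not reported here. The peptides, lists and tests were chosen with earlier results of these data known. Shared words were counted in GENCODE M21 transcripts, strand ignored.

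Alternatives were quantile normalisation, columns rescaled to 1000000, no trend, no filter, a mean of at least 5, array weights, fits of only the groups compared, 0.1 as the pseudocount and leaving out each library. A block for the library number in the column headers was added after seeing the data.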

Additional observations from a re-analysis of the deposited data

Results flagged for a closer look

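Hcrt in mutant chow replicate 2 (75.9) lay far from the other 3 mutant chow libraries (0.00, 0.00 and 12.8). On the signal scale without logs, its gap to the nearest took 0.831 of the group's range, just past the 95% limit for 4 samples. That limit is for normally distributed values, which skewed signals with libraries at 0 need not be, and the log2 scale was not tested. This is 1 of 14 such comparisons, made for the highest and lowest library of each of the 7 genes in that group. With normally distributed values, chance flags about 1 in 20 groups. The same library had the most Avp (3051), Oxt (1736), Nptx2 (71.8), Nr5a1 (26.8) and Fezf1 (30.8) of the 12; the part of neighbouring tissue in its Hcrt value was not tested.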

How the results depend on the processing

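No gene of the 7 was called in any of the 5 comparisons under any alternative; with a mean of at least 5 only 5 of them were tested. The labels give no replicate numbers, but the column headers number the libraries within each group. Same-numbered libraries had r over 0.1 in 3 of 15 pairs, and they were not taken as paired. The highest were 0.286 for control chow 1 with control HFD 1 and 0.308 for control chow 2 with control HFD 2. Pairs with different numbers were not compared, so this check cannot decide on pairing. A replicate block, chosen after seeing the data, made the Trh difference on chow 0.51 (from -0.18) and called 0 of the 7 genes. With the block, 4 of the 7 had an unadjusted p below 0.05 in limma for genotype on HFD (from 1), where 398 of 15801 genes did. For genotype on chow, diet in mutants and diet in controls, 1 of the 7 did (from 0), where 848, 912 and 580 genes did. The block changed the calls over all genes from 3 to 1 for genotype on chow and from 3 to 0 for diet in mutants. The alternatives gave 389 values of the named differences and of Pearson's r for Avp and Oxt, with rho not counted. Of these, 375 kept their direction and side of the threshold, 12 changed sign and 2 lost the call. With array weights the Oxt diet difference in controls became 0.23 (from -0.18). The other 10 sign changes came from leaving out 1 library, where the differences ran from -0.17 to 0.78 for Avp and -1.23 to 0.66 for Oxt by diet in controls, and on chow between genotypes from -0.042 to 1.84 for Oxt, -0.49 to 0.51 for Trh, -0.45 to 1.64 for Hcrt and -0.13 to 0.85 for Crh. Avp between the HFD groups stayed between 2.41 and 3.36, with adjusted p-values of 1. The number of correlated pairs, 1, ranged from 0 to 1 when 1 library was left out and was 0 without the 2 libraries farthest from the median, where the smallest p that the remaining 10 libraries allow (0.00694) could not pass after adjustment over 21 pairs. Rescaling the columns shifted the median over all genes: by diet in controls it went from -0.01 to 0.12, and for the interaction it went from -0.03 to -0.18, so differences of that size there depend on the scaling. Groups of 2 to 4 libraries and unknown depth limit what could be detected. Changes near 2-fold were mostly missed in the simulation, and for Avp, Oxt, Pmch and Hcrt far larger ones could be missed.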
